A study of Mus musculus with 8 samples.

Results

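The heat shock chaperones described here are 10 genes, chosen by symbol from the 22609 genes of the deposited table: the transcription factor gene Hsf1, the HSP70 genes Hspa1a, Hspa1b and Hspa8, the HSP70 exchange factor gene Hsph1, the J protein gene Dnajb1, the HSP90 genes Hsp90aa1 and Hsp90ab1, and the mitochondrial chaperonin genes Hspd1 and Hspe1. All 10 were found, and all 10 were among the 12048 genes with a mean of at least 10 that were tested. They were picked with their spread over the libraries and their difference between the genotypes already known, so those values are given as a description. Counts of them passing a limma test are printed beside the share over all genes, and nothing is read from those counts. RNA sequencing was done on naive CD8 T cells, the cells that give rise to cytotoxic T cells and have not yet met antigen, isolated directly from the spleens of C57BL/6 mice aged 3 months. The groups were 4 libraries labelled Het and 4 labelled wild type (WT), which in the series title are Brca1 het and Brca1 wildtype. The labels do not say how the Brca1 allele was made, and they give no sex, litter, day or batch. They do not state that each library is 1 animal, so an error measures the spread between libraries. Each library carries its genotype and its title number as a name: Het 31, 53, 56 and 139, and WT 45, 54, 57 and 65.

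Molecular chaperones bind unfolded proteins and help them to fold. HSP70 proteins work in a cycle that J proteins start by bringing a client and that exchange factors such as HSP110 end, while HSP90 completes the folding of kinases and receptors, among them Lck, a kinase of T cell receptor signalling. When unfolded protein builds up, HSF1 forms trimers, binds inverted repeats of the unit GAA (the heat shock element) and raises transcription of many of these genes within minutes, so their level in a cell also depends on recent warming, handling and activation.

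Each value is a gene's normalized read count, linear in scale, and the deposited values follow 1 shared distribution over the 8 libraries. Genes above 0 numbered 13863 to 14656 in Het and 15358 to 15569 in WT libraries. The lowest value above 0, the value of about 1 read, was 0.9 to 1.9 in Het and 0.2 to 0.3 in WT libraries. That ratio does not hold higher up. By a count of the different values up to it, a value of 100 stood for about 74 to 121 reads in Het and 106 to 128 in WT libraries. Brca1 was at 174.5, 142.2, 126.7 and 169.6 in Het 31, 53, 56 and 139, and at 208.1, 148.6, 168.3 and 206.2 in WT 45, 54, 57 and 65. The values overlapped, and a value per gene cannot show which allele was read. Cd8a, a chain of the CD8 coreceptor, was at 40591 or more in each library.

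The promoters of 6 of the 10 genes (Hspd1, Hspe1, Hsph1, Dnajb1, Hspa1a and Hspa1b) were in the RefSeq table for GRCm38.p6, as windows from 250 bases before to 50 after a start. They are shown as a description, and a part of the heat shock element in the order of the libraries was not tested. Capitals mark matches to the heat shock element. A match of 2 units was searched as GAANNTTC or TTCNNGAA on both strands. A complete match of 3 units is GAANNTTC followed by any 2 bases and GAA, or the same on the other strand, so every complete match contains both forms of 2 units. For Hspe1, Hspa1a and Hspa1b the 250 bases before the start are given 5′ to 3′ on the gene's strand, and for Hsph1 30 bases around its match.
Hspe1, chr1:55087898-55088147, plus strand: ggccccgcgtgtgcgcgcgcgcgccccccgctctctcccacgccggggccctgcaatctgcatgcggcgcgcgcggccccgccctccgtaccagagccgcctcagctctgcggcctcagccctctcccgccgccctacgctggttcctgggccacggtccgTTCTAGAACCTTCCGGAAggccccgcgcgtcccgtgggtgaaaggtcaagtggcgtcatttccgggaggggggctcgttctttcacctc
Hspa1a, chr17:34972157-34972406, minus strand: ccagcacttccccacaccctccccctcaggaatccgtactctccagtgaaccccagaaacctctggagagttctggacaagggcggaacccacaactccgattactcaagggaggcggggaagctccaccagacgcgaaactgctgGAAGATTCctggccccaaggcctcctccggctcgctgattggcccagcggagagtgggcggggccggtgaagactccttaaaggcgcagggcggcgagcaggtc
Hspa1b, chr17:34959239-34959488, minus strand: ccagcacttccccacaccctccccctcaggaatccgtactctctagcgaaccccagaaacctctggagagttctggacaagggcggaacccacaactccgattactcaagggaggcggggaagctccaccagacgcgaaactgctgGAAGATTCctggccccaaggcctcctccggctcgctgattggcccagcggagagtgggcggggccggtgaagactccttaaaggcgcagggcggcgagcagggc
Hsph1, chr5:149636287-149636316, minus strand: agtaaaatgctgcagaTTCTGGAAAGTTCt

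A complete match was in the windows of Hspd1, Hspe1 and Hsph1, that is, 3 of 6 genes, against 56 of 8613 tested genes with a window (0.65%). At least a match of 2 units was in 5 of 6, against 14.3% of the tested genes. Dnajb1 had none in its windows, which says only that these letters are absent there. Hspd1 and Hspe1 lie head to head, and for 1 Hspd1 window the starts are 216 bases apart and the windows overlap by 285 bases. The run of capitals printed for Hspe1 is read from the other strand in that window, so 1 run counts for both genes. The other Hspd1 window, at a different start, held no match. In Hsph1 the match lies after the annotated start. The 250 bases of Hspa1a and Hspa1b differ at 3 positions.

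Hsf1, the transcription factor of the heat shock response, was the steadiest of the 10. Its normalized read count was 3150.6, 3295.4, 4104.0 and 3693.5 in Het 31, 53, 56 and 139, and 3869.5, 4272.3, 4195.1 and 3466.4 in WT 45, 54, 57 and 65. The 8 values lay within 1.36-fold of each other, with Het 31 lowest and WT 54 highest. The means were 3561 ± 429 in Het and 3951 ± 367 in WT (SD, n = 4 each), a log2 difference, Het minus WT, of -0.15 (95% interval -0.39 to 0.08).

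Hsph1, the HSP110 exchange factor, varied far more than the factor itself. It was at 2543.9, 10522.7, 14033.5 and 3553.2 in Het 31, 53, 56 and 139, and at 21019.9, 8557.6, 8421.6 and 17300.9 in WT 45, 54, 57 and 65. Het 31 and 139 were lowest and WT 45 and 65 highest, while Het 53 and 56 lay above WT 54 and 57, so the genotypes overlapped. The highest and lowest values differed 5.52-fold within Het, 2.50-fold within WT and 8.26-fold over all libraries. Means were 7663 ± 5533 in Het and 13825 ± 6345 in WT (SD, n = 4 each). Het minus WT on the log2 scale was -1.07, with an SE of 0.52 (95% interval -2.23 to 0.08).

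Hspa1a and Hspa1b, the stress-inducible HSP70 genes, had the lowest values of these genes in each library. Hspa1a was at 1.5, 13.1, 30.1 and 0 in Het 31, 53, 56 and 139, and at 45.7, 1.2, 4.9 and 18.8 in WT 45, 54, 57 and 65. Counting the different low values of a library puts these at about 2, 14, 23 and 0 reads in Het and 58, 5, 10 and 31 reads in WT. Hspa1b was at 11.1, 34.9, 34.4 and 4.8 in Het 31, 53, 56 and 139, and at 176.6, 14.8, 20.1 and 93.8 in WT 45, 54, 57 and 65. By the same count these were about 15, 39, 26 and 4 reads in Het and 169, 31, 31 and 121 reads in WT. In both genes WT 45 was highest and Het 139 lowest, and Hspa1b reached 11.9-fold between WT libraries. The log2 differences were -0.86 (95% interval -3.61 to 1.88) for Hspa1a and -1.49 (-3.38 to 0.39) for Hspa1b. Of the 75-base windows of the Hspa1a and Hspa1b transcripts (GENCODE M21), 54.2% and 55.8% also occur in another gene, mostly in each other. How reads with several places were counted is not given in the sources used here, so the split between these 2 genes and their low level are uncertain.

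Hspa8, the HSP70 that cells make without stress, stood at high levels in an order unlike that of Hsph1. From the lowest up, Het 31, Het 53, WT 65 and Het 139 came first, as they did for Hsf1. The same libraries held the highest values of Hspe1. It was at 5137.1, 6965.9, 20945.4 and 13866.3 in Het 31, 53, 56 and 139, and at 19913.5, 14855.1, 16971.2 and 9769.6 in WT 45, 54, 57 and 65. Het 56 was highest and Het 31 lowest, and Het 139, second lowest for Hsph1, was near the middle, while WT 65 was the lowest WT library. Means were 11729 ± 7203 in Het and 15377 ± 4275 in WT (SD, n = 4 each), a log2 difference of -0.56 (95% interval -1.42 to 0.30). Hspa8 shared 68.0% of its 75-base windows with other genes, chiefly Gm15459, so its value is uncertain too.

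Dnajb1, the J protein that delivers clients to HSP70, had the same libraries at its ends as Hsph1, in a narrower range. It was at 4935.5, 6253.1, 6523.5 and 4161.2 in Het 31, 53, 56 and 139, and at 8354.2, 5744.4, 6099.4 and 8408.8 in WT 45, 54, 57 and 65. WT 45 and 65 stood above all other libraries, and the other WT libraries lay between the Het values. Means were 5468 ± 1114 in Het and 7152 ± 1428 in WT (SD, n = 4 each). Het minus WT on the log2 scale was -0.39, with an SE of 0.17 (95% interval -0.77 to -0.01). No window of its transcript was shared with another gene.

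The HSP90 genes moved together. Hsp90aa1, the inducible form, was at 1313.1, 2371.1, 3420.9 and 1432.1 in Het 31, 53, 56 and 139, and at 4935.5, 2009.6, 2252.2 and 3357.4 in WT 45, 54, 57 and 65. Hsp90ab1, the constitutive form, was at 58398.3, 73524.2, 118429.0 and 70062.9 in the Het libraries, and at 139105.4, 76658.5, 79147.9 and 118429.0 in the WT libraries in the same order. In both genes Het 31 was lowest, Het 139 next and WT 45 highest, and Het 56 lay above WT 54 and 57.

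Hsp90ab1 was among the most abundant transcripts, ranking 21, 15, 5 and 16 in Het 31, 53, 56 and 139 and 3, 14, 13 and 5 in WT 45, 54, 57 and 65. Its equal values in Het 56 and WT 65 come from the shared distribution, which gives equal ranks equal values. Per kilobase of its principal transcript, Hsp90ab1 averaged 31790 in Het and 41010 in WT, and Hsp90aa1 650.5 in Het and 957 in WT. Of the windows of Hsp90aa1, 53.1% occur in other genes, against 0.736% for Hsp90ab1. The log2 differences between the genotypes were -0.57 (95% interval -1.32 to 0.17) for Hsp90aa1 and -0.37 (-0.93 to 0.19) for Hsp90ab1.

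Hspd1 and Hspe1, which encode the barrel and the lid of the mitochondrial chaperonin, have overlapping promoters but differed in their order over the libraries. Hspd1 was at 1654.2, 2232.9, 2692.6 and 1774.4 in Het 31, 53, 56 and 139, and at 4030.2, 2330.6, 2222.4 and 2758.6 in WT 45, 54, 57 and 65. Hspe1 was at 1584.6, 1431.1, 934.8 and 957.6 in Het 31, 53, 56 and 139, and at 930.1, 734.1, 635.8 and 1530.8 in WT 45, 54, 57 and 65. Het 31 was thus lowest for Hspd1 and highest for Hspe1, and WT 45, highest for Hspd1, was among the lowest 3 for Hspe1.

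Hspe1 was the only one of the 10 with a higher mean in Het, at 1227 ± 330.4 in Het and 958 ± 401 in WT (SD, n = 4 each, log2 difference 0.40, 95% interval -0.19 to 1.0). Hspd1 averaged 2089 ± 474 in Het and 2835 ± 829 in WT (log2 difference -0.43, 95% interval -0.87 to 0.02). The Hspe1 transcript is short, at 774 bases against 2423 for Hspd1, and 23.7% of its windows and 33.7% of those of Hspd1 occur in other genes.

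**Figure D1:**
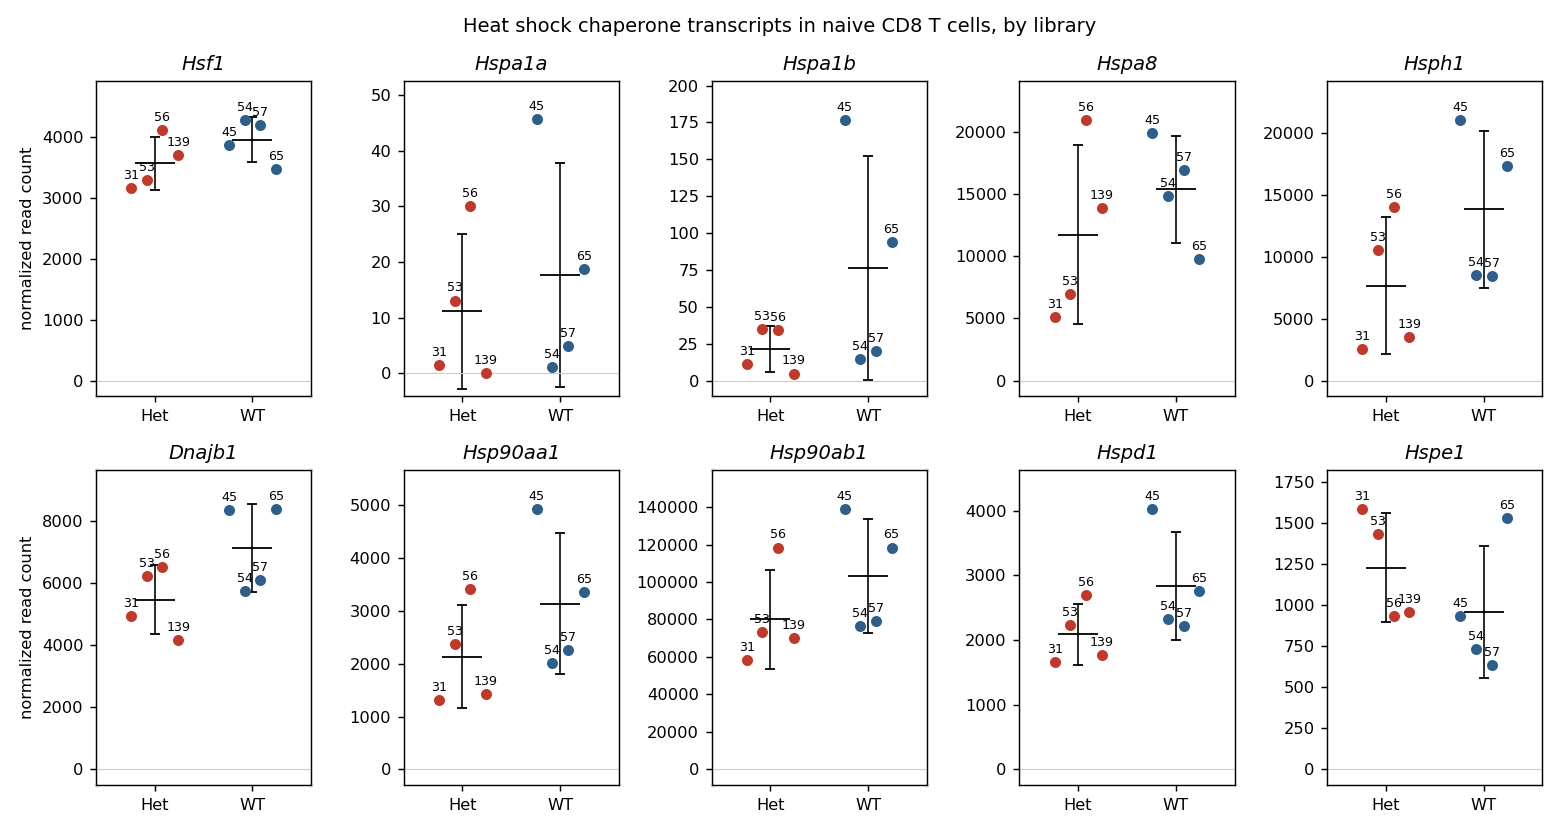
Normalized read count (vertical axis, linear) of each of the 10 genes in the Het (left, red) and WT (right, blue) libraries, with library numbers beside the points; black bars are the mean ± SD of 4 libraries. Het 31 and 139 are low and WT 45 high in most genes, and the genotypes overlap in each panel.

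In 7 of the genes (Hspa1a, Hspa1b, Hsph1, Dnajb1, Hsp90aa1, Hsp90ab1 and Hspd1), grouped after their values were seen, the same libraries took the ends. Het 31 and 139 were the lowest 2 libraries in 6 of the 7 (not Hspa1a). WT 45, WT 65 and Het 56 were the highest 3 in 6 of the 7 (not Hspa1b). Over all 10 genes, WT 45 was highest in 6 and Het 31 lowest in 6. The mean of the 10 log2 levels, each less its own mean over the 8 libraries, was -0.79, 0.06, 0.49 and -0.86 in Het 31, 53, 56 and 139, and 1.0, -0.33, -0.13 and 0.57 in WT 45, 54, 57 and 65. Taken as a median over all tested genes, not a mean, the centred log2 level was between -0.01 and 0.01 in each library. As the libraries share 1 distribution of values, a level near 0 there was largely set by the normalization.

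The spread inside a genotype was wide for these genes. The median SD of the log2 level over the 4 libraries of a genotype was 0.54 in Het and 0.50 in WT for the 10 genes, beside 0.25 in Het and 0.18 in WT for all tested genes. Hsf1 had an SD of 0.17 in Het and 0.14 in WT, and Hsph1 of 1.19 in Het and 0.68 in WT.

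**Figure D2:**
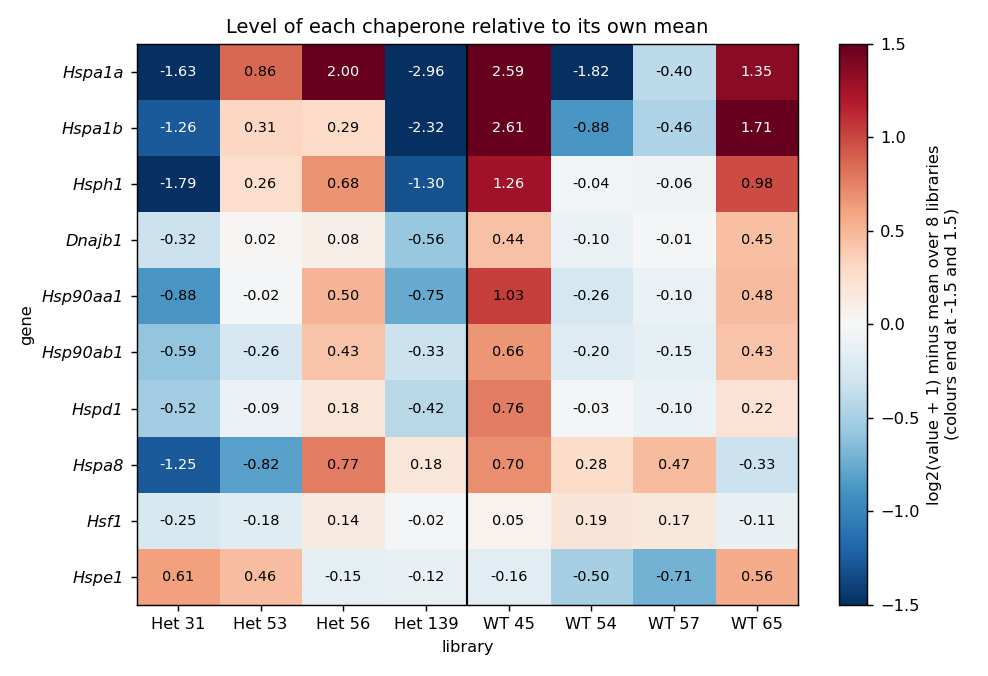
Log2(value + 1) of each gene (rows) in each library (columns, Het left of the line and WT right) less the gene's mean over the 8 libraries. All but Hspa8, Hsf1 and Hspe1 are low in both Het 31 and 139 and high in both WT 45 and 65.

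Between the genotypes, 9 of the 10 genes had a lower mean log2 level in Het, beside 48.0% of all genes tested. The median log2 difference of the 10 was -0.49, beside 0.01 for all genes tested, and it was -0.28 without WT 45. By limma with Benjamini-Hochberg adjustment over the 12048 genes, 0 of the 10 passed at 0.05, where 0.515% of all genes did. At an unadjusted limma p under 0.05 there was 1 of the 10, Dnajb1, beside 8.19% of all genes, and 4.40% of all genes were lower in Het at that p as Dnajb1 was. The values of the genotypes overlapped in all 10 genes, whereas they did not overlap in 5.0% of all genes. Because the genes were chosen with this contrast known, nothing is read from these counts.

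Single libraries moved most of these differences by over 1.5 times, and none of them past 0. With 1 library left out, the log2 difference of Hspa1a ran between -1.67 without Het 56 and -0.02 without Het 139, and it was -0.19 after a further quantile normalization. That of Hspa1b lay between -2.04 without WT 54 and -0.87 without WT 45, and was -0.97 without Het 139. Hspa8 went to -0.91 without Het 56 and -0.23 without Het 31. Hsph1 was at -1.48 without Het 56 and -0.66 without Het 31.

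The difference of Hsp90aa1 was -0.33 without WT 45, -0.38 without Het 31 and -0.84 without Het 56, and that of Hsp90ab1 -0.21 without WT 45, -0.24 without Het 31 and -0.58 without Het 56. Hspd1 was at -0.24 without WT 45. Hspe1 was at 0.23 without WT 57, 0.27 without Het 31 and 0.66 without WT 65. Hsf1 was at -0.10 without Het 31. Dnajb1 kept between -0.49 without WT 54 and -0.27 without Het 139, within 1.5 times.

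**Figure D3:**
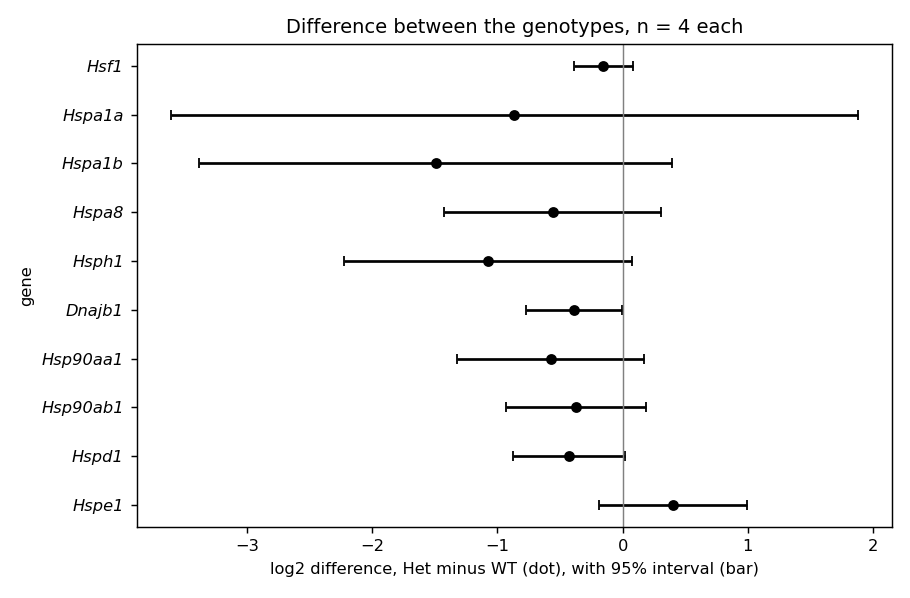
Log2 difference, Het minus WT, of the 10 genes (dots) with 95% intervals from the limma fit (bars). All but Hspe1 lie below 0, and all intervals but that of Dnajb1 reach across 0.

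Other genes of the chaperone network were taken from 10 lists with 141 genes found in the table, of which 130 were tested. None passed the limma test after adjustment, at 0 of 130 beside 0.515% of all genes. At an unadjusted limma p under 0.05 there were 4 higher and 4 lower in Het, beside 8.19% of all genes in either direction. The median log2 difference of the 130 was 0.02, with 76 higher and 54 lower (41.5% lower, beside 48.0% of all genes tested). The lists are given in turn, by their role.

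HSP90 cochaperones, which load clients and time the HSP90 cycle, were lower in Het in 14 of 16 genes, with a median log2 difference of -0.12. Cacybp, a partner of the ubiquitin ligase adaptor Skp1, was at 2264.9, 2865.3, 3772.2 and 2849.9 in Het 31, 53, 56 and 139, and at 5079.9, 3365.0, 2992.9 and 3468.0 in WT 45, 54, 57 and 65. Its genotypes overlapped (log2 difference -0.34, limma adjusted p = 0.653). Sugt1, an HSP90 partner in kinetochore assembly, was higher in Het, at 3746.1 to 4663.5 in Het and 3574.4 to 3700.7 in WT, without overlap (log2 difference 0.20, limma adjusted p = 0.586).

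Of the other J domain genes 8 of 14 were lower in Het, with a median log2 difference of -0.08. Dnajb2 was at 768.4 to 1599.6 in Het and 1277.0 to 1937.4 in WT (log2 difference -0.47, limma adjusted p = 0.601). Dnaja1, a partner of Hspa8, was at 1267.2 to 2903.1 in Het and 2222.4 to 3558.0 in WT (-0.47, limma adjusted p = 0.660). Exchange factors and adaptors of HSP70 had 5 of 9 lower (median -0.03), with Bag2 at 100.2 to 155.3 in Het and 115.0 to 282.7 in WT, and Bag3 at 183.9 to 274.6 in Het and 218.7 to 306.4 in WT (limma adjusted p = 0.641 and 0.718).

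Among the other HSP70 and HSP110 genes, 2 of 6 were lower in Het (median log2 difference 0.06). Hspa4l, an HSP110 relative of Hsph1, was at 369.2, 801.1, 890.8 and 356.6 in Het 31, 53, 56 and 139, and at 1282.5, 608.4, 563.1 and 1275.4 in WT 45, 54, 57 and 65 (log2 difference -0.64, limma adjusted p = 0.660). Hspa12a, a distant HSP70 relative, was at 9.8, 19.8, 11.1 and 12.2 in the Het libraries and at 18.3, 78.6, 93.5 and 99.8 in WT 45, 54, 57 and 65 (-2.17, limma adjusted p = 0.180). Without WT 45 its limma adjusted p was 0.0181, the only call among the 130 genes when any 1 library was left out.

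Of the 10 genes listed by name as small heat shock proteins, 6 had a mean under 10, Hspb1 among them at 3.8 to 6.0 in Het and 1.5 to 4.6 in WT. The 4 tested were split, with 2 higher and 2 lower in Het (median log2 difference -0.77). Hspb11 was at 415.4 to 677.4 in Het and 400.1 to 533.2 in WT, and Hspb6 at 89.9 to 244.5 in Het and 91.1 to 171.2 in WT. Hspb8 was at 0.9 to 13.8 in Het and 16.4 to 36.8 in WT, and Cryab at 3.2 to 27.4 in Het and 17.3 to 44.6 in WT (limma adjusted p = 0.385 and 0.507). Markers of nerve and of fibroblasts differed in the same direction as Hspa12a, Hspb8 and Cryab. The summed level of 11 nerve markers was 165 to 490.3 in Het and 1268 to 3660 in WT, lower in Het in 10 of 10 tested, and that of 9 stroma markers 272 to 1002 in Het and 1170.5 to 6316 in WT, lower in 9 of 9. By limma 3 nerve markers (Mtap1b, Snap25 and S100b) and 1 stroma marker (Dcn) were called, with adjusted p between 0.00536 and 0.0254, where 0.515% of all genes were called. At an unadjusted limma p under 0.05, all 10 nerve and all 9 stroma markers tested were lower in Het, beside 4.40% of all genes. Of the nerve markers, 6 of the 11 were at 0 in at least 1 library. The 9 epidermis markers summed to 120.6 to 893.5 in Het and 89.0 to 6721 in WT, high in WT 45 and 54. They were lower in Het in 8 of 8 tested, with 0 of 8 called by limma and 0 at an unadjusted limma p under 0.05. The part of these tissues in the 3 genes was not tested. In RNA from a cell population, fewer cells of a type and less RNA per cell cannot be told apart.

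Of the other heat shock factors, Hsf2 was at 234.0 to 388.8 in Het and 345.3 to 407.9 in WT (limma adjusted p = 0.775), Hsf4 averaged 23.7 in Het and 25.45 in WT (limma adjusted p = 0.899), and Hsf3 was listed at 0 in all libraries. Hsbp1, which binds HSF1 trimers, was at 1502.1 to 2251.0 in Het and 1459.8 to 1962.4 in WT (limma adjusted p = 0.823).

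The CCT chaperonin and prefoldin, which fold actin and tubulin, had a median log2 difference of 0.02 (6 of 13 lower), with Cct6a at 7032 ± 483 in Het and 7627 ± 822 in WT and Pfdn4 at 397 ± 88.2 in Het and 343 ± 30.5 in WT (SD, n = 4 each). Other mitochondrial chaperones and proteases had a median of 0.09 (4 of 12 lower), with Grpel1, the exchange factor of mitochondrial HSP70, at 1583.7 to 1980.0 in Het and 1369.0 to 1567.9 in WT, without overlap (log2 difference 0.28, limma adjusted p = 0.489).

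Chaperones of the endoplasmic reticulum and genes of the unfolded protein response had a median of 0.07 (4 of 22 lower). Dnajc10, a disulfide reductase of that compartment, was at 2120.1 to 3155.8 in Het and 1595.9 to 2333.5 in WT (log2 difference 0.52, limma adjusted p = 0.289), and Pdia3, a disulfide isomerase that loads class I molecules, at 10510.9 to 13103.6 in Het and 9704.8 to 10328.9 in WT (0.24, limma adjusted p = 0.528). Proteasome subunits had a median of 0.08 (7 of 31 lower), with Psma2 at 2360.8 to 4371.1 in Het and 2453.1 to 2778.6 in WT and Psmb3 at 530.8 to 950.3 in Het and 443.8 to 649.0 in WT (limma adjusted p = 0.635 and 0.653).

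**Figure D4:**
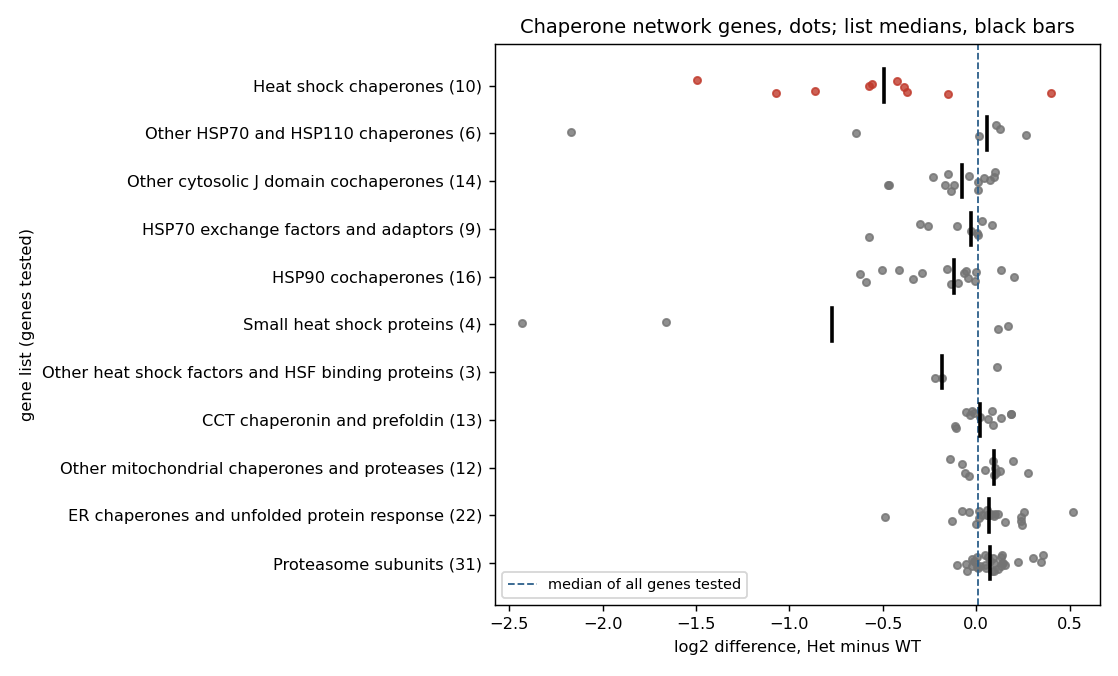
Log2 difference, Het minus WT, of the 10 heat shock chaperones (red) and of the tested genes of 10 other lists (grey), with list medians as black bars and the median of all 12048 tested genes as a dashed line. The chaperone median lies at -0.49. The median of the small heat shock proteins (4 tested) lies lower, at -0.77, and that of the other heat shock factors (3 tested) at -0.18. The medians of the CCT, mitochondrial, endoplasmic reticulum and proteasome lists lie between 0.02 and 0.09. Those of the cytosolic lists of HSP70 and HSP110, exchange factors, J domain genes and HSP90 cochaperones lie at 0.06, -0.03, -0.08 and -0.12.

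Genes with the library profile most like the mean of the 10 were sought among 9530 other genes with a mean of at least 100, by the root mean square difference of the centred log2 profiles over the 8 libraries. A gene with no change over the libraries would differ by 0.62, and the median gene differed by 0.65. Of the 10 themselves, Hspa1a (1.30), Hspa1b (0.92), Hspe1 (0.77) and Hspa8 (0.69) differed from their mean by more than an unchanging gene would. Hsf1 differed by 0.60 and the others by 0.07 (Hsp90aa1) to 0.45 (Hsph1), so the mean is not a profile that all 10 share. Of the 10 genes most alike, 3 were in the network lists: Chordc1, an HSP90 cochaperone (0.13), Hspa4l (0.17) and Ahsa2, a relative of the HSP90 activator Ahsa1 (0.21). The other 7 were P4ha1 (0.16) and Plod1 (0.19), which hydroxylate prolines and lysines of collagen, Gprasp1 (0.18), Pank1, a kinase of coenzyme A synthesis (0.21), Ccdc117 (0.23), Bend4 (0.23) and Mll1, a histone methyltransferase (0.23).

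Chordc1 was at 3099.9, 5801.4, 7058.1 and 2837.9 in Het 31, 53, 56 and 139, and at 8402.3, 4675.6, 4702.0 and 7855.1 in WT 45, 54, 57 and 65. Its Het 31 and 139 values were the lowest and its WT 45 and 65 values the highest, as for Hsph1. Its promoter window held 3 overlapping complete heat shock elements around the start, shown here as 30 bases with the matches in capitals.
Chordc1, chr9:18292259-18292288 (GRCm38.p6), plus strand: accgGAACGTTCGGGAAAATTCCTGAAgca

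Of the 8 of these 10 genes with a window in the RefSeq table, Chordc1 was the only one with a complete match. Hspa4l and Ahsa2 had no match of 2 units either. Of the network genes outside these 10, 1 of 114 with a window had a complete match (0.877%, beside 0.65% of tested genes). It was Dnajb6, which was not among the 50 genes most alike. P4ha1 was at 1481.9, 2534.5, 3473.9 and 1712.9 in Het 31, 53, 56 and 139, and at 4105.7, 2175.2, 2330.8 and 3910.1 in WT 45, 54, 57 and 65. Among the 50 genes most alike, 8 were in the network lists (16% of the 50), which made up 1.30% of the genes compared, and among the 100 most alike there were 9. The 124 network genes compared had a median difference of 0.67 from the chaperone profile, beside 0.65 for all genes and 0.62 for a flat profile. The 8 were Chordc1, Hspa4l, Ahsa2, Stip1, Ahsa1, Dnaja1, St13 and Dnaja4. Stip1, the adaptor that joins HSP70 to HSP90, was at 4467.4, 9185.3, 14969.4 and 6292.4 in Het 31, 53, 56 and 139, and at 16404.8, 9875.4, 9491.4 and 12819.8 in WT 45, 54, 57 and 65. The likeness is a description, over the 8 libraries that all these genes share.

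Immediate early genes, which respond to handling and activation, had a mean centred log2 level of -0.15, -0.02, 0.10 and -0.06 in Het 31, 53, 56 and 139, and of 0.25, -0.25, -0.13 and 0.25 in WT 45, 54, 57 and 65. Their highest libraries, WT 45 and 65, were also high for the chaperones. Their lowest was WT 54 at -0.25, while Het 139 and 31, lowest for the chaperones, stood at -0.06 and -0.15. Whether handling or activation had a part was not tested. Of 28 tested, 22 were lower in Het, beside 48.0% of all genes (median log2 difference -0.05). None passed the limma test (0 of 28, beside 0.515% of all genes), and 1 was higher and 2 lower at an unadjusted limma p under 0.05, beside 8.19% of all genes. Zfp36, an mRNA decay factor, was at 8621.1 to 11325.3 in Het and 11993.8 to 12701.2 in WT, without overlap (log2 difference -0.26, limma adjusted p = 0.517), and the stress factor Atf3 at 22.8 to 48.2 in Het and 5.7 to 33.8 in WT (1.47, limma adjusted p = 0.529).

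Markers of other blood cells ran in part against the chaperones. Summed over 10 B cell markers the level was 3902 to 19407 in Het and 3169.5 to 8259 in WT libraries, highest in Het 31 and lowest in WT 45. Cd79b, a B cell receptor chain, was at 4726.1, 2071.7, 1140.7 and 1666.2 in Het 31, 53, 56 and 139, and at 873.8, 2038.1, 1252.4 and 1819.8 in WT 45, 54, 57 and 65. Over 8 NK cell markers the sum was 987 to 6449 in Het and 739 to 2256 in WT, and over 10 myeloid markers 1534 to 4924 in Het and 1680.2 to 3307 in WT. The markers were higher in Het in 10 of 10 B, 7 of 7 NK and 8 of 10 myeloid genes tested. By limma 0 were called, beside 0.515% of all genes. At an unadjusted limma p under 0.05, 2 genes (1 NK and 1 myeloid) were higher, beside 8.19% of all genes in either direction. Of the NK markers Klra4 was at 0 in all libraries. Het 31, low in chaperones, was highest in the B and NK markers, and WT 45 and Het 56, high in chaperones, were lowest, whereas WT 65 and Het 139 did not follow that pattern. The 10 naive CD8 T cell markers summed to 283966 to 321615 in Het and 273703 to 300793 in WT, and none of them was at 0. They were higher in Het in 6 of 10, with 0 called and 0 at an unadjusted limma p under 0.05. Whether other cells contribute to the spread of the chaperones was not tested.

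**Figure D5:**
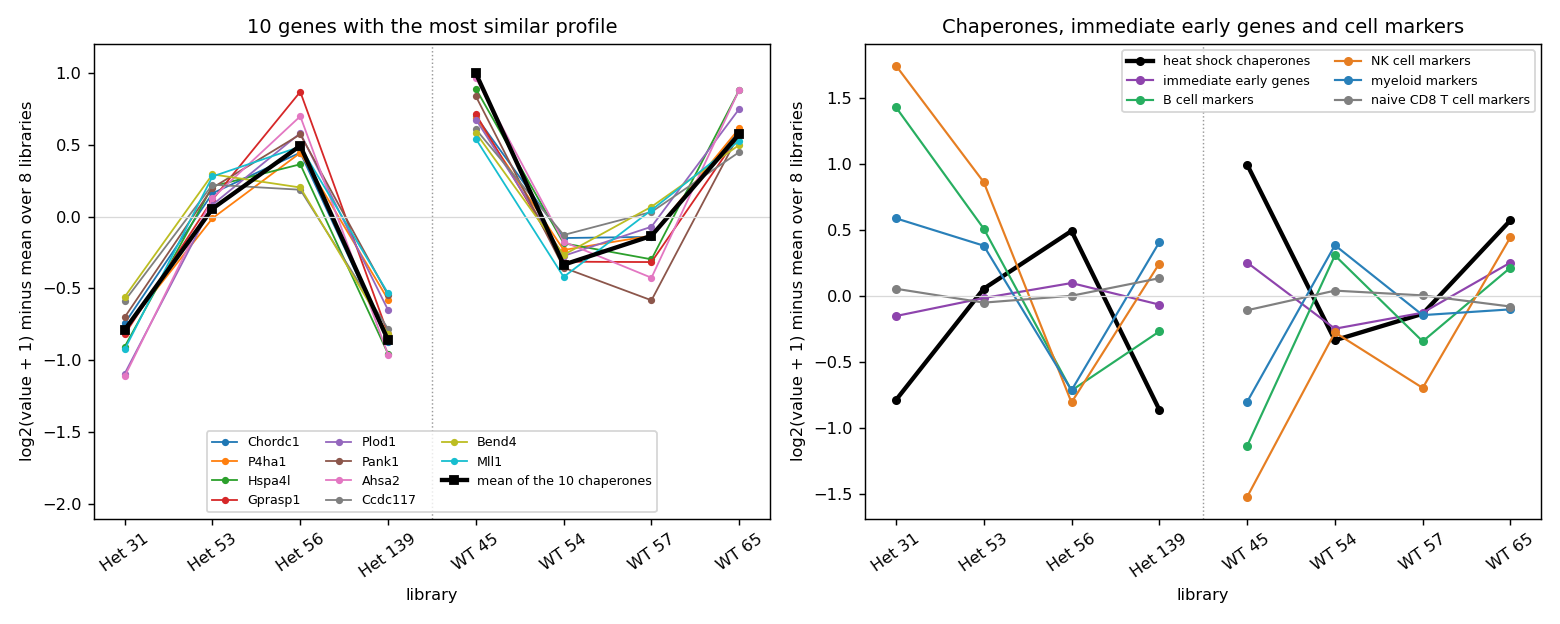
Centred log2 level (vertical axis) in the 8 libraries (Het left, WT right): on the left the mean of the 10 chaperones (black) and the 10 genes most like it, on the right the same mean beside the means of immediate early genes and of cell markers. The genes on the left are low in Het 31 and 139 and high in Het 56, WT 45 and WT 65, and the B and NK markers on the right peak in Het 31 and are lowest in WT 45.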

How the data were processed

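Messenger RNA of naive CD8 T cells was sequenced in 4 Het and 4 WT libraries, by the TruSeq stranded mRNA protocol per the labels. What the authors deposited is a linear signal, the normalized read count of each gene. CASAVA, TopHat2, HTSeq, DESeq and the build mm9 are named per the submitters' processing notes, while for the normalization step and the strand setting no source used here gives a method. All 8 libraries had the same distribution of values (100% of the 9513 ranks above a mean of 100 agreed to within 2%), so totals say nothing of depth, and no count model was used. Depth, read from the low values, covers counting error only.

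For genes with a mean of at least 10, log2(value + 1) was fitted by limma (version 3.58.1, trended, R 4.3.3). Tests were 2-sided, and p-values were adjusted by Benjamini and Hochberg over the 12048 genes, with calls at 0.05. Fold changes on this scale understate the change of low genes. The test was checked on simulated data, with large changes in genes of low spread. That check does not cover changes as small, or genes as variable, as most of the 10. The 10 genes, the 18 lists (236 of 239 genes found) and the tests were chosen with earlier results of these data known. Named genes were the 10, of each list the genes called (at most 4) or else the 2 with the smallest p, the 10 nearest profiles and the 2 highest markers per cell type. Not all of them are described. Stip1, Hspb1, Hspb6, Hspb11, Hsf4, Hsf3 and the grouping of 7 genes were chosen after their values were seen. Alternatives were the pseudocount, the filter, 2 scalings, the trend, a robust fit, array weights, leaving out each library and, added after seeing the data, leaving out Hspa1a and Hspa1b. Promoters are from RefSeq (GRCm38.p6) and transcripts from GENCODE M21.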

Additional observations from a re-analysis of the deposited data

Results flagged for a closer look

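In 112 groups of 4 libraries (the named genes in each genotype, and the mean of the 10 chaperones), 5 held a library whose gap to its nearest neighbour was nearly the whole range (4.46%, where chance gives about 1 in 20). None was a heat shock chaperone. Clpx, a mitochondrial protease subunit, was at 1176.2 in Het 53, with the other Het libraries at 1036.2 to 1041.6. Dnajc10 was at 2333.5 in WT 65, with the other WT libraries at 1595.9 to 1719.2. The macrophage gene Lyz2 was at 1133.4 in WT 54 and at 578.2 to 664.3 in the other WT libraries. Het 56, high in chaperones, held Mtap1b, a neuronal microtubule gene, at 76.1 (other Het libraries 2.4 to 7.9) and Krt5, a keratin of skin, at 51.8 (others 8.7 to 13.4).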

How the results depend on the processing

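No paired analysis was possible because the genotypes share no library number. The median log2 difference of the 10 chaperones lay between -0.51 and -0.41 under the other pseudocounts, filters, scalings, trend, robust and weighted fits and without Hspa1a and Hspa1b, and between -0.71 and -0.28 with 1 library left out. Of the 10 genes, 9 were lower in Het in each setting that kept all of them, and 7 of 8 with a mean of at least 50, a filter that drops Hspa1a and Hspa1b. In these settings 0 were called. Over all genes the calls numbered 62, all lower in Het, 123 (114 lower) with no filter and 14 (14 lower) with a mean of at least 50, and 11 to 94 (11 to 91 lower) with 1 library left out. The network genes had 0 calls in every setting but 1, with 0 to 1 when a library was left out. Values with 1 shared distribution cannot show a change of total RNA, and Hspa1a rests on few reads.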
